A study of Mus musculus with 8 samples.

Results

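The 48 genes described here encode the machinery that copies the genome in S phase and the enzymes that make its building blocks. They were measured in tumor-associated macrophages (TAMs) from B16F10 melanomas and were chosen by name and function, with no measured value in the rule, from 23413 gene symbols counted in the same cells. All 48 were found in the count table, and all 48 passed the filter on low counts in each of the 3 comparisons. RNA-seq was done on the TAMs of 8 mice, with 1 library per mouse. The vehicle DMSO was given to 2 mice, thiostrepton, a thiopeptide antibiotic, was given by intraperitoneal injection (I.P.) to 4 mice, and thiostrepton was given beside the tumor (paratumor subcutaneous injection, S.C., called IS in the labels) to 2 mice. All were male B6 mice of 8 to 10 weeks that carried subcutaneous tumors of B16F10, a mouse melanoma cell line, were dosed on days 6 and 12, and had CD45+F4/80+CD11b+Gr-1− cells sorted from the tumor on day 18. By S.C. they received 20 mg/kg. The I.P. dose of these 4 mice and the route of DMSO in these 2 mice are not given in the sources used here, and no untreated mice were included, so that every comparison is with vehicle.

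Origins of replication are licensed in G1, when the origin recognition complex with CDC6 and CDT1 loads the ring-shaped MCM2-7 helicase onto DNA, and they fire in S phase, when CDC45 and the GINS complex join the ring and turn it into the active CMG helicase. The PCNA clamp, loaded by replication factor C, then holds the polymerases on their template, while RPA coats single strands and FEN1 and LIG1 join the fragments of the lagging strand. Most of these genes are transcribed as cells pass from G1 to S, under E2F factors that the retinoblastoma family restrains, and tissue macrophages can renew themselves by dividing in place.

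The sequences that the genes have in common were therefore looked at first. RefSeq promoter windows around a transcription start on GRCm38.p6 (the assembly also called mm10) were given for 39 of the 48 genes. The most frequent position, from 250 bases before to 50 bases after the start of the RefSeq gene, held for 19827 of 32851 windows. The other windows lay at other distances from the gene start. An E2F-type word, here TTTCCCGC, TTTCGCGC, TTTGCCGC or TTTGGCGC on either strand, with overlapping matches counted separately, stood in a window of 16 of these 39 genes (41.0%). The same words stood in a window of 704 of 27025 genes in the same table (2.60%). By single windows the shares were 34.0% of 47 windows and 2.26% of 32851. The shorter CCAAT box, on either strand, stood in 64.1% of the 39 genes and in 41.1% of all genes. These are matches of letters only, and they say nothing of which factor was bound. The 5 windows below are shown because their genes carry some of the results that follow. The matching letters are in capitals and each sequence is written in the direction of transcription. All 5 hold an E2F-type word, whereas 23 of the 39 genes do not. Rrm1, Rrm2 and Pola2, which carry results too, are among those without a word. Mcm6 has 3 matches, of which the first pair overlaps, with a word on each strand. Cdc6, Cdt1 and Orc1 are licensing genes that went different ways, and Pole2 was the member called lower in S.C. mice. The Cdc6 window lies wholly inside the gene as annotated, which starts at base 98907801.
Mcm6, chr1:128359656-128359955, minus strand: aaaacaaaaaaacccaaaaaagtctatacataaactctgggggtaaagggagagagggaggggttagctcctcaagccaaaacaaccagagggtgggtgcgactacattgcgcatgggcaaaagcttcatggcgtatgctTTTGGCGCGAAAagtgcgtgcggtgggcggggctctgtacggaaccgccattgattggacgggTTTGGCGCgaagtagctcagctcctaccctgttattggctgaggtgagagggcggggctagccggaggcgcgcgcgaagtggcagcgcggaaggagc
Cdc6, chr11:98907901-98908200, plus strand: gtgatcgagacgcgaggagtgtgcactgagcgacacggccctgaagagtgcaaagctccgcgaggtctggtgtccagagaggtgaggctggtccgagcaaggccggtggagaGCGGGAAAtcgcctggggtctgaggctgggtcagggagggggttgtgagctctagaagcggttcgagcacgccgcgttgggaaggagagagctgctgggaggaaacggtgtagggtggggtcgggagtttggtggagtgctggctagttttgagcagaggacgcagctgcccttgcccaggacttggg
Cdt1, chr8:122567765-122568064, plus strand: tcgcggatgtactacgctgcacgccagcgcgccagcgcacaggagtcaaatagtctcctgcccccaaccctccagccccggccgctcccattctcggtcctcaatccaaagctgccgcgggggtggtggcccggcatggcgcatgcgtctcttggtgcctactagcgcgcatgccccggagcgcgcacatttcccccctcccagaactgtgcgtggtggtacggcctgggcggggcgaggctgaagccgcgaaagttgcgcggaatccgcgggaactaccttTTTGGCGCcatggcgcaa
Orc1, chr4:108579204-108579503, plus strand: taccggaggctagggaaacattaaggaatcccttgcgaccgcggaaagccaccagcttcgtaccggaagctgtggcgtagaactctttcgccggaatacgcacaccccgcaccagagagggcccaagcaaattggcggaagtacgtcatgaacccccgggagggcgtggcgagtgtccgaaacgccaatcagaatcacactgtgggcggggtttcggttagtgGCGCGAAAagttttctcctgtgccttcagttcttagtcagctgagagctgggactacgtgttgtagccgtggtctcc
Pole2, chr12:69228141-69228440, minus strand: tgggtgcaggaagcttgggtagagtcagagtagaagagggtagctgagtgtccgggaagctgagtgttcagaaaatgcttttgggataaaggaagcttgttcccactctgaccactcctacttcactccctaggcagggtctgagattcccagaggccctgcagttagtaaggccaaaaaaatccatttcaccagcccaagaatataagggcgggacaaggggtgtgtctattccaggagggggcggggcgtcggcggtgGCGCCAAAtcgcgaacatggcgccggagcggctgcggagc

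In the DMSO mice, the 48 genes were at 6.96 to 339 CPM (the standard library-size scaling of counts, with TMM factors over the 8 mice), with a median of 47.6 CPM, so that no member was near the limit of detection. Total counts were 14127506 to 17577466 per mouse, and 3 counts, taken as the floor, were 0.169 to 0.218 CPM, for counting error only. Levels per kilobase were taken over the union of all annotated exons of a gene. This union can be longer than 1 transcript, so the scale compares genes only roughly. On it Pcna (the sliding clamp) was the highest at 141 CPM per kb in DMSO mice. Next came Rrm2, the S-phase subunit of ribonucleotide reductase, at 67.2, and the helicase subunits Mcm6 and Mcm3, at 51.2 and 50.0. The lowest was Pole, the catalytic subunit of the leading-strand polymerase epsilon, at 0.975 CPM per kb. The 2 DMSO mice were alike for these genes. Their median absolute difference was 0.168 on the log2 scale, and 0 of the 48 genes were 2-fold apart. Over 9328 genes that averaged 5 CPM or more the median was 0.289 and 5.36% were 2-fold apart.

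The libraries differed in ways that touch every comparison. Most macrophage markers were high throughout (Cd68 at 2376 to 3396 CPM, C1qa at 1159 to 1973 CPM, and Adgre1, listed as Emr1, at 318 to 1020 CPM). Mertk was the lowest, at 30.3 to 85.5 CPM. The 10 macrophage markers summed to 27126 to 30930 CPM in DMSO mice, 27143 to 34419 in I.P. mice and 38120 to 40866 in S.C. mice. Lyz2 was the largest part of each sum, at 16430 and 15405 CPM in DMSO mice, 13316 to 18425 in I.P. mice, and 21375 and 25046 in S.C. mice. The 10 melanoma markers had counts in all mice and summed to 627 and 702 CPM in DMSO mice, to 466 to 1781 in I.P. mice, with the highest in mouse 4, and to 3146 and 746 in S.C. mice 1 and 2. Of 9 neutrophil markers in the table, the summed level was 69.7 and 110 CPM in DMSO mice, 26.3 to 114 in I.P. mice and 202 and 327 in S.C. mice. Cxcr2 was the largest part in every mouse, at 63.6 and 96.7 CPM in DMSO mice, 22.3 to 77.4 in I.P. mice, and 171 and 65.3 in S.C. mice. In S.C. mouse 2 each of the other neutrophil markers was above both DMSO mice. S100a8, S100a9 and Ngp were at 64.7, 60.2 and 60.3 CPM there and at 6.46, 15.7 and 4.44 in S.C. mouse 1. They were at 0.115 to 6.72 CPM in DMSO mice and 0 to 21.2 in I.P. mice. Sums stayed under 50 CPM for T or NK cell, B cell, dendritic cell, endothelial and fibroblast markers in every mouse, with Pax5 and Pdgfra at 0 in all 8. Monocyte markers summed to 69.7 and 90.4 CPM in DMSO mice, 10.4 to 35.7 in I.P. mice and 97.6 and 127 in S.C. mice, and erythroid markers to 51.1 and 238, 0 to 50.8, and 337 and 38.9. Ccr2 was the largest part of the monocyte sum in every mouse, at 59.9 and 79.2 CPM in DMSO mice, 7.30 to 20.1 in I.P. mice, and 60.7 and 76.7 in S.C. mice. What part any of these had in the results was not tested. In all, 3 libraries stood apart from the DMSO mice over all genes. The SD of the log2 difference from the DMSO mean was taken over 8814 genes that averaged 5 CPM or more and had an annotated exon length. It was 1.01 in I.P. mouse 1, 1.09 and 1.01 in S.C. mice 1 and 2, and 0.385 to 0.615 in I.P. mice 2, 3 and 4. In the numbering of the libraries in the labels, I.P. mouse 1 stands next to both S.C. mice and apart from the other I.P. mice, with the DMSO mice between. No processing batch is named in the sources used here, and the part of such a batch in what set these 3 libraries apart was not tested. In S.C. mouse 1 the differences also went with the length of the gene (Spearman's rho -0.312 across genes, which are not independent, against -0.135 to 0.213 in the other treated mice).

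The level of the 48 genes together was lowest in I.P. mouse 1, though Dixon's outlier test among the I.P. mice did not set it apart. Their mean log2 CPM was 5.79 and 5.64 in the DMSO mice, 4.09, 5.60, 5.61 and 5.25 in I.P. mice 1 to 4, and 5.31 and 5.32 in S.C. mice 1 and 2. As summed CPM these were 3851 and 3327 in DMSO mice, 1311, 3327, 3277 and 2614 in I.P. mice, and 3125 and 2925 in S.C. mice. All 6 treated mice were below both DMSO mice on the log2 scale, but I.P. mice 2 and 3 only just, while I.P. mouse 1 was far below. In these bulk libraries, fewer cells in S phase and less RNA per cycling cell cannot be told apart.

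**Figure D1:**
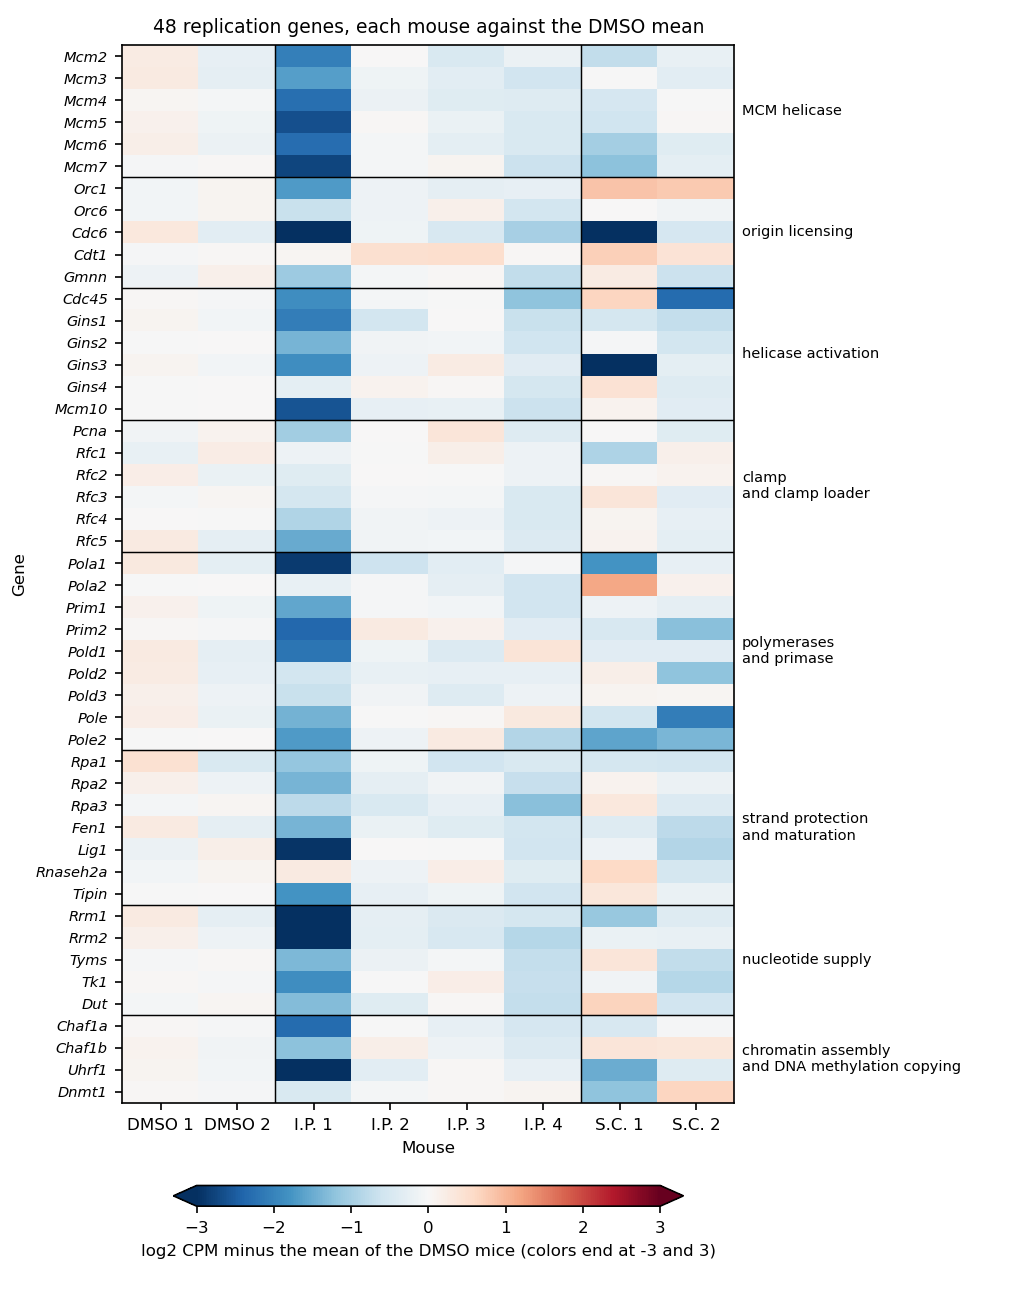
Heatmap of the log2 CPM of each of the 48 replication genes (rows, by role) in each of the 8 mice (columns) minus the mean of the 2 DMSO mice; blue is lower and red is higher, and colors end at -3 and 3. I.P. mouse 1 is below the DMSO mean in every row but Cdt1 and Rnaseh2a, with Rfc1 close to it at -0.15. The 2 S.C. mice differ from each other row by row.

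The first comparison asked how systemic thiostrepton changed replication genes in TAMs. The median log2 fold change of the 48 genes, I.P. against DMSO, was -0.48, where that of all 12174 genes tested was 0.02, and 46 of the 48 genes were below 0 (48.2% of all genes tested were). The lowest was Cdc6, at -0.91, and the highest Cdt1, at 0.29. None passed a test. By edgeR's quasi-likelihood test 0 of the 48 genes were differentially expressed genes (DEGs, unadjusted P under 0.05 and at least 2-fold, 2.0% of all genes tested), 0 had an unadjusted P under 0.05 (3.43% of all genes), and 0 had a Benjamini-Hochberg adjusted p under 0.05 (0.0% of all genes). The smallest unadjusted P of a member was 0.0760, for Rpa3, and the edgeR adjusted p of the members ran from 0.980 to 0.999. DESeq2 and edgeR's likelihood ratio test also called 0 of the 48. Without I.P. mouse 1 the median log2 fold change was -0.22, with 43 of 48 genes still below 0.

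I.P. mouse 1 carried more of that difference than any other mouse. In this mouse 45 of the 48 genes were below both DMSO mice (42.5% of all genes tested were), and 32 were at least 2-fold below both on the log2 CPM scale (13.8% of all genes). The others were closer to vehicle. In I.P. mouse 4, 37 genes were below both DMSO mice (37.3% of all genes) and 2 at least 2-fold (4.61%). In I.P. mice 2 and 3, 23 genes each were below both (29.8% and 31.6% of all genes), and 0 at least 2-fold (1.54% and 1.13%). All 4 I.P. mice were below both DMSO mice for 11 of the 48 genes (6.83% of all genes tested), and above both for 0 (7.32%). Those 11 were Mcm4, Orc1, Mcm10, Gins2, Rfc4, Pola2, Rpa3, Tipin, Rrm1, Rrm2 and Tyms. Leaving out a mouse can only keep or raise such a count: without I.P. mouse 2 or 3 it was 18 or 20 (1359 and 1340 of all 12174 genes tested), and without mouse 1 it stayed at 11 (1104 of all genes, or 9.07%). As the members were chosen with results of these data known, these shares are given as a description.

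**Figure D2:**
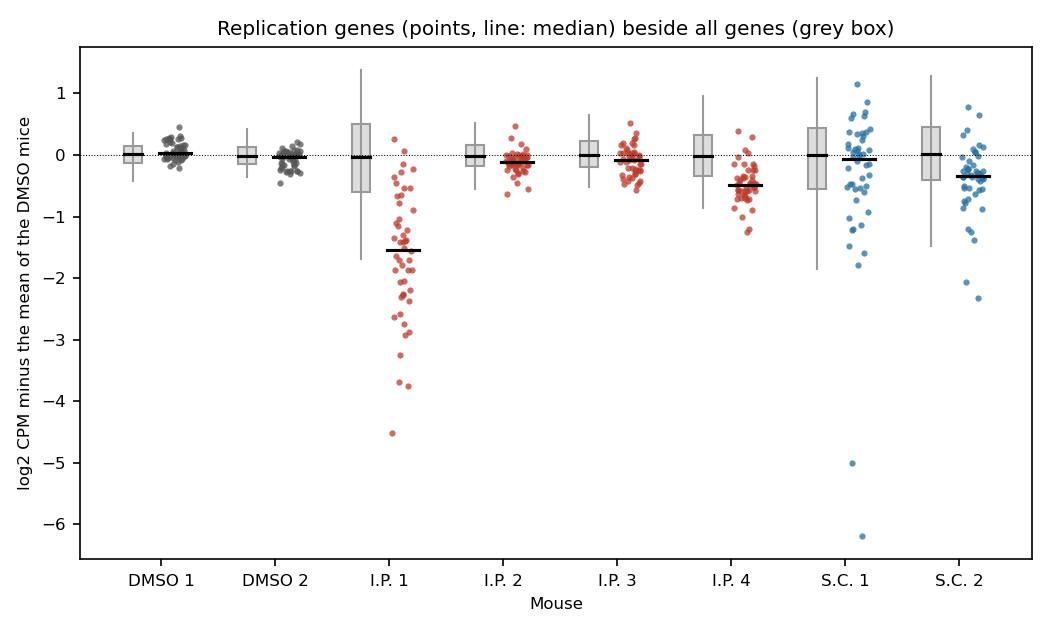
Log2 CPM minus the DMSO mean of the 48 replication genes in each mouse (points, with the median as a line) beside the same for 9328 genes that averaged 5 CPM or more (grey box: quartiles with the median, grey line: percentiles 5 to 95). The median of the 48 genes is -1.54 in I.P. mouse 1, -0.48 in I.P. mouse 4 and -0.34 in S.C. mouse 2, and within 0.12 of 0 in the other mice.

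The MCM helicase, whose 6 subunits are loaded as a double ring at each licensed origin, had the lowest median of the 8 role groups in I.P. mouse 1, -2.27 on the log2 scale. Mcm6, the member with the highest CPM in this group (chromosome 1, 128331590 to 128359664, minus strand), was at 268 and 209 CPM in DMSO mice, at 48.8, 226, 192 and 173 CPM in I.P. mice 1 to 4, and at 117 and 184 CPM in S.C. mice. Only I.P. mouse 1 was far below, and mouse 2 lay between the DMSO mice. Its log2 fold change by I.P. was -0.58 (SE 0.50, edgeR adjusted p = 0.980). Mcm3 was at 222 and 153 CPM in DMSO mice and at 59.0, 167, 149 and 125 CPM in I.P. mice, with a log2 fold change of -0.59 (SE 0.39, edgeR adjusted p = 0.980). The 6 subunits were close to each other in the I.P. comparison, with log2 fold changes from -0.60 to -0.51. In I.P. mouse 1 alone they ranged from 3.18-fold (Mcm3) to 6.79-fold (Mcm7) below the DMSO mean.

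The licensing genes, which act before the ring is loaded, did not move together. Cdc6, the ATPase that helps to load the MCM ring, was at 41.4 and 27.0 CPM in DMSO mice and at 1.34, 30.8, 23.9 and 16.6 CPM in I.P. mice. In I.P. mouse 1 it was 25.6-fold below the DMSO mean, the largest difference of any member in that mouse. Cdt1, its partner in loading, was at 40.6 and 42.8 CPM in DMSO mice and at 43.6, 58.1, 59.6 and 42.6 CPM in I.P. mice, so that it was no lower in the mouse in which Cdc6 was lowest. Both carry an E2F-type word in the windows printed above. Orc1, the origin recognition subunit that varies in the cell cycle, was at 6.58 and 7.35 CPM in DMSO mice and at 2.04, 6.20, 5.76 and 5.83 CPM in I.P. mice (log2 fold change -0.49, SE 0.49, edgeR adjusted p = 0.980). Gmnn, which encodes geminin, the inhibitor of CDT1, was at 65.1 and 80.3 CPM in DMSO mice and at 33.6, 69.1, 73.9 and 43.3 CPM in I.P. mice (log2 fold change -0.40, SE 0.34, edgeR adjusted p = 0.980). Cdc6 and Cdt1 were singled out after their values were seen, as were the other genes below that have no test beside them.

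Among the genes that turn the ring into a moving helicase, 6 of 6 were below both DMSO mice in I.P. mouse 1 and 6 of 6 in I.P. mouse 4. Over all genes tested the shares were 42.5% and 37.3%. Mcm10, which is needed to start unwinding, was at 16.6 and 16.9 CPM in DMSO mice and at 2.68, 14.1, 14.4 and 10.7 CPM in I.P. mice, all 4 below. Gins4, 1 of the 4 GINS subunits, was at 48.7 and 49.5 CPM in DMSO mice and at 40.3, 52.5, 50.5 and 34.1 CPM in I.P. mice, which straddle the controls (log2 fold change -0.15, SE 0.25, edgeR adjusted p = 0.980). Its partner Gins1 was 4.29-fold below the DMSO mean in I.P. mouse 1, against 1.22-fold for Gins4, so that subunits of 1 complex differed in the same library.

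The clamp and its loader were the role group nearest to vehicle in I.P. mouse 1, with a median of -0.71. Pcna was at 314 and 365 CPM in DMSO mice and at 165, 340, 434 and 261 CPM in I.P. mice. Mouse 3 was above both controls and mouse 1 well below them (log2 fold change -0.18, SE 0.36, edgeR adjusted p = 0.981). Rfc1, the large subunit of the loader, was at 31.4 CPM in I.P. mouse 1 and at 30.1 and 40.5 CPM in DMSO mice.

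All 9 polymerase and primase genes were below both DMSO mice in I.P. mouse 1 (42.5% of all genes tested were), and the sizes differed. Pola1, the catalytic subunit of polymerase alpha, was 7.70-fold below the DMSO mean there. Pola2, the accessory subunit that ties the polymerase to primase, was at 83.5 and 84.5 CPM in DMSO mice and at 71.5, 81.7, 70.0 and 56.2 CPM in I.P. mice, all 4 below but by little (log2 fold change -0.27, SE 0.23, edgeR adjusted p = 0.980). Pole2, the second subunit of polymerase epsilon, was at 13.9 and 14.1 CPM in DMSO mice and at 4.21, 12.5, 16.9 and 7.53 CPM in I.P. mice (log2 fold change -0.44, SE 0.50, edgeR adjusted p = 0.980).

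The 3 RPA subunits, which together coat single-stranded DNA, held 3 of the 5 smallest P values of the I.P. comparison, none of them under 0.05. Rpa3 was at 20.4 and 21.9 CPM in DMSO mice and at 12.2, 15.4, 17.9 and 8.81 CPM in I.P. mice. The groups did not overlap, and here I.P. mouse 4 and not mouse 1 was the lowest (log2 fold change -0.64, SE 0.32, edgeR adjusted p = 0.980). Rpa1 was at 176 and 93.4 CPM in DMSO mice and at 57.5, 117, 86.0 and 93.5 CPM in I.P. mice, so that the vehicle mice differed from each other by more than any I.P. mouse did from the lower of them (log2 fold change -0.61, SE 0.34, edgeR adjusted p = 0.980). Rpa2 was at 51.3 and 40.9 CPM in DMSO mice and at 17.3, 38.1, 42.5 and 28.2 CPM in I.P. mice (log2 fold change -0.55, SE 0.36, edgeR adjusted p = 0.980). For Fen1, the flap nuclease, the values were 131 and 90.4 CPM in DMSO mice and 41.6, 93.9, 85.0 and 74.6 CPM in I.P. mice (log2 fold change -0.58, SE 0.34, edgeR adjusted p = 0.980). Lig1, the ligase that seals lagging-strand fragments, was 7.82-fold below the DMSO mean in I.P. mouse 1, while Rnaseh2a, which removes RNA from DNA, was at 50.0 CPM there, above both DMSO mice (39.2 and 44.3 CPM). Rnaseh2a shares exon bases with Prdx2 on the other strand, and as the strand setting of the counting is not stated, reads of the 2 genes cannot be told apart.

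Nucleotide supply was the group in which the I.P. mice were most often all below vehicle, for 3 of its 5 genes (6.83% of all genes tested). Rrm1, the large subunit of ribonucleotide reductase, was at 263 and 182 CPM in DMSO mice and at 22.9, 181, 163 and 153 CPM in I.P. mice. Mice 2 to 4 were just under the lower control and mouse 1 was 9.73-fold below the DMSO mean (log2 fold change -0.77, SE 0.63, edgeR adjusted p = 0.980). Rrm2, the subunit made in S phase, was at 207 and 165 CPM in DMSO mice and at 13.6, 152, 133 and 102 CPM in I.P. mice, a 13.7-fold difference from the DMSO mean in mouse 1. Tyms, Tk1 and Dut, which serve the supply of thymidine nucleotides, were 2.57-fold, 3.65-fold and 2.48-fold below it there. A Tyms pseudogene is a row of the table too, and reads could be split between the pair.

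In the group that restores chromatin and DNA methylation behind the fork, Uhrf1 and Dnmt1, which work as a pair at newly copied DNA, differed. Uhrf1, the reader of hemimethylated sites, was at 80.6 and 72.7 CPM in DMSO mice and at 5.86, 61.8, 78.4 and 64.7 CPM in I.P. mice, 13.1-fold below the DMSO mean in mouse 1 (log2 fold change -0.54, SE 0.73, edgeR adjusted p = 0.980). Dnmt1, the maintenance methyltransferase, was at 66.8 and 63.4 CPM in DMSO mice and at 47.6, 62.8, 66.4 and 68.8 CPM in I.P. mice, 1.37-fold below the DMSO mean in mouse 1 (log2 fold change -0.09, SE 0.24, edgeR adjusted p = 0.987). Chaf1b, a subunit of the chromatin assembly factor CAF-1, was at 45.4 and 38.6 CPM in DMSO mice and at 17.8, 47.2, 37.6 and 31.4 CPM in I.P. mice (log2 fold change -0.33, SE 0.37, edgeR adjusted p = 0.980).

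**Figure D3:**
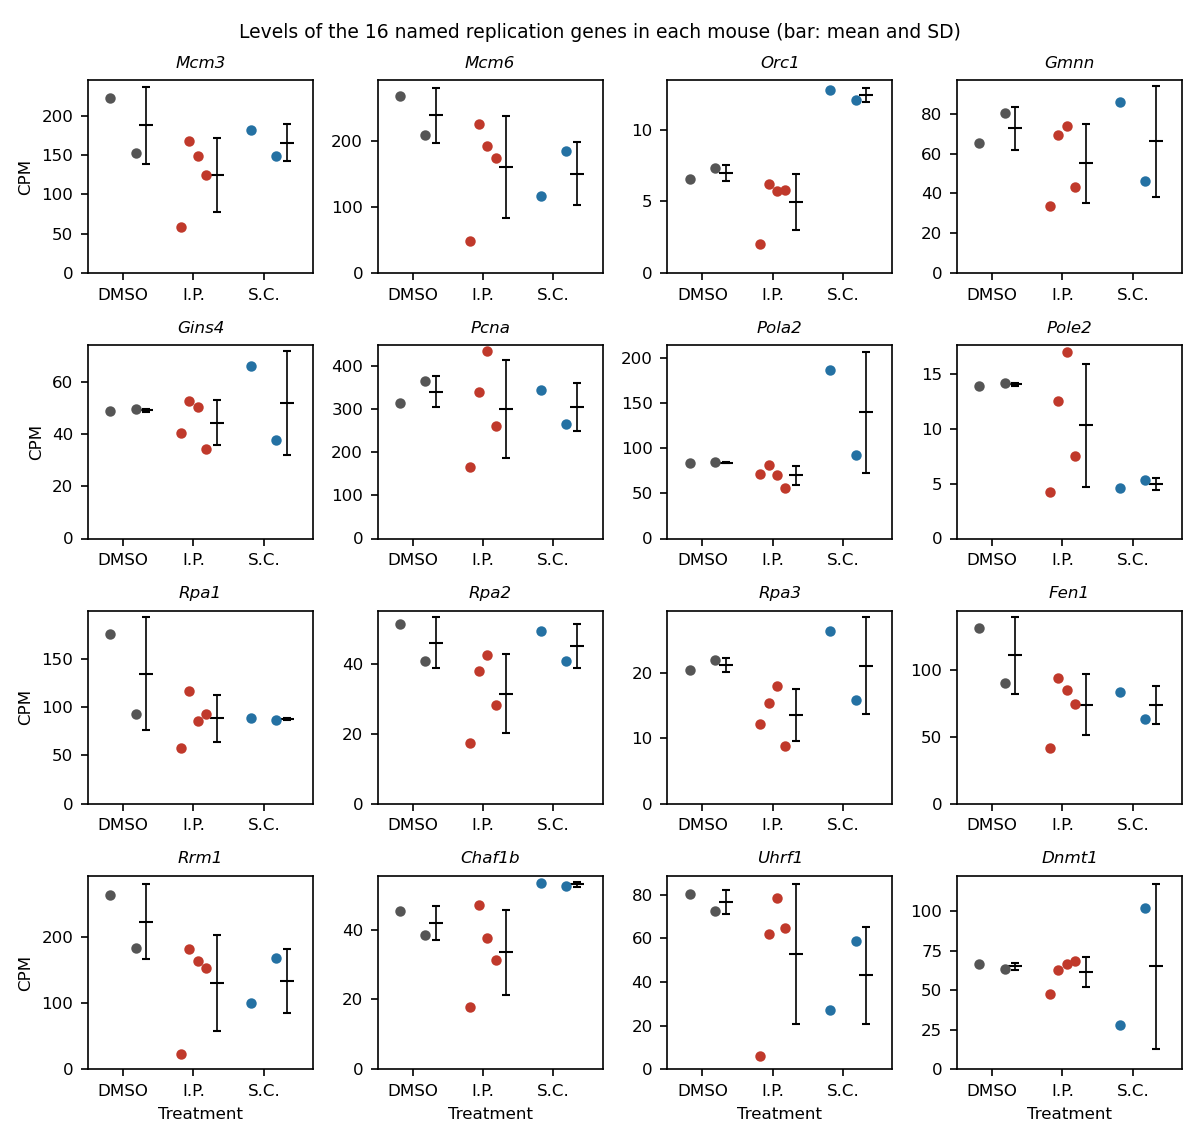
CPM of the 16 named replication genes in each mouse (points, in order of mouse number within a group), with the mean and SD of each group beside them (DMSO n = 2, I.P. n = 4, S.C. n = 2). In most panels 1 I.P. mouse, mouse 1, lies far below the other 3, and the pairs of S.C. mice are close for Orc1, Pole2, Rpa1 and Chaf1b and wide apart for Pola2, Gins4 and Dnmt1.

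Members with an E2F-type word were set beside those without, as a description that was chosen after the data were seen. In I.P. mouse 1 the median log2 difference from the DMSO mean was -2.03 for the 16 genes with a word, -1.36 for the 23 with a window and no word, and -1.42 for the 9 without a window. The ranges overlapped widely, from -4.52 to 0.07 with a word and from -3.76 to 0.26 without. In I.P. mice 2, 3 and 4 the medians with and without a word were -0.12 and -0.13, -0.13 and -0.15, and -0.40 and -0.54, and in S.C. mice 1 and 2 they were -0.81 and 0.07, and -0.30 and -0.35.

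The second comparison asked what injection beside the tumor did. The median log2 fold change of the 48 genes, S.C. against DMSO, was -0.24, where that of all 11680 genes tested was 0.02, and 37 of the 48 were below 0 (48.4% of all genes tested). When libraries were scaled by their size alone, the median of all genes itself shifted to -0.14, 44 of the 48 genes were below 0, and the members lay 0.26 below the median of all genes, as with TMM. Of the 48 genes 1 was a DEG (5.06% of all genes tested were, 268 higher and 323 lower with TMM, and 196 higher and 429 lower with library size only). The same gene was the 1 with an unadjusted P under 0.05 (5.41% of all genes), and 0 had an adjusted p under 0.05 (0.0% of all genes). Without S.C. mouse 2 the DEGs among the 48 were 11 (27.8% of all genes tested were called), without S.C. mouse 1 they were 5 (24.5%), so that the members were called no more often than all genes, and without DMSO mouse 1 or 2 they were 0 (1.66% and 0.92%), where a lone mouse is assumed to vary like the other group. The median was -0.13 without S.C. mouse 2 and -0.37 without S.C. mouse 1. Both S.C. mice were below both DMSO mice for 18 of the 48 genes (17.2% of all genes tested), and above both for 4 (17.1%).

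The gene called was Pole2. It lies on chromosome 12 from 69201773 to 69228195, on the minus strand. It was at 13.9 and 14.1 CPM in DMSO mice and at 4.57 and 5.31 CPM in S.C. mice, so that both treated mice were well below both controls, and each pair was close. It fell by 1.53 on the log2 scale (SE 0.56, unadjusted P = 0.0369, edgeR adjusted p = 0.869). The call was lost when either DMSO mouse was left out, at log2 fold changes of -1.55 and -1.52. Its exons share bases with those of Gm49384 on the same strand, which is not a row of the table.

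Another 4 members had the next smallest P values. Mcm6, given above, was at -0.69 on the log2 scale by S.C. (SE 0.36, edgeR adjusted p = 1.0). Rrm1 was at 99.2 and 168 CPM in S.C. mice, both below both controls, with a log2 fold change of -0.76 (SE 0.40, edgeR adjusted p = 1.0). For Uhrf1, at 27.3 and 58.8 CPM in S.C. mice, it was -0.86 (SE 0.45, edgeR adjusted p = 1.0). The last was Fen1, at 83.5 and 63.3 CPM in S.C. mice, at -0.62 (SE 0.35, edgeR adjusted p = 1.0). Each of these had its 2 S.C. mice below both DMSO mice (17.2% of all genes tested did), and none passed the test.

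The S.C. mice differed from each other more than the DMSO mice did. Between S.C. mice 1 and 2, 13 of the 48 genes were 2-fold apart, against 0 between the DMSO mice. Over the 9328 genes that averaged 5 CPM or more 33.3% were, against 5.36%. In S.C. mouse 1, 24 genes were below both DMSO mice (41.1% of all genes) and 7 at least 2-fold (14.3%), and in S.C. mouse 2, 36 genes (41.1%) and 4 at least 2-fold (13.2%). Different genes were low in each. Cdc6 was at 0.336 CPM in S.C. mouse 1, from 5 counts, and at 23.7 CPM in S.C. mouse 2. The GINS subunit Gins3 was at 0.135 CPM in S.C. mouse 1, from 2 counts and under the floor, and at 6.63 CPM in mouse 2, where DMSO mice had 8.68 and 7.75 CPM. The other way round, Cdc45, another subunit of the CMG helicase, was at 40.2 CPM in mouse 1 and 5.10 CPM in mouse 2, against 26.5 and 25.2 CPM in DMSO mice. Dnmt1 was at 28.2 and 102 CPM in S.C. mice 1 and 2, on either side of the DMSO mice. Thus Gins3 and Cdc45, parts of the same CMG helicase, were low in different S.C. mice.

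The 4 genes with both S.C. mice above both DMSO mice were Orc1, Cdt1, Pola2 and Chaf1b. Orc1 was at 12.8 and 12.1 CPM in S.C. mice, Cdt1 at 68.0 and 55.0 CPM, Pola2 at 187 and 92.2 CPM, and Chaf1b at 53.5 and 52.6 CPM. Of their unadjusted P values against DMSO the smallest was 0.144, for Pola2.

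**Figure D4:**
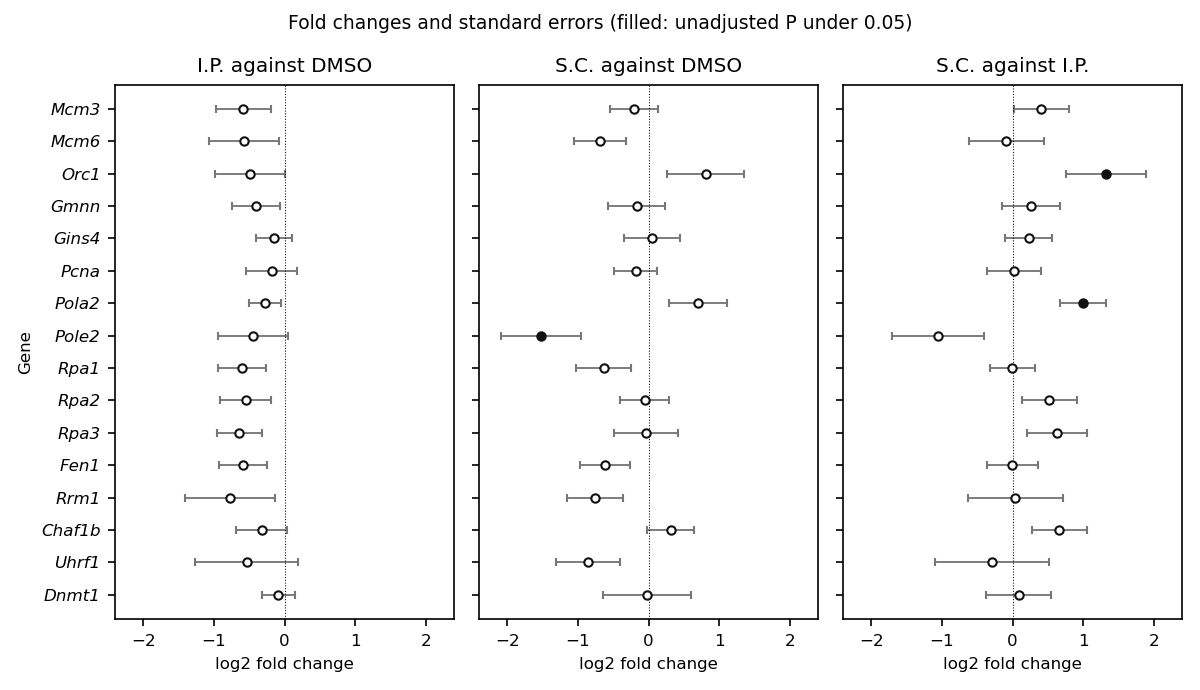
Log2 fold change (points) and its SE (bars) of the 16 named replication genes in the 3 comparisons; filled points have an unadjusted P under 0.05 by edgeR's quasi-likelihood test, before adjustment. Filled are Pole2 in S.C. against DMSO and Orc1 and Pola2 in S.C. against I.P., and all points of I.P. against DMSO are open and below 0.

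The third comparison set the routes against each other. The median log2 fold change of the 48 genes, S.C. against I.P., was 0.21 (0.02 over all 12206 genes tested), and 15 of the 48 were below 0 (48.2% of all genes). Without I.P. mouse 1 it was 0.01, with 24 of 48 below 0. Only 1 gene was a DEG (7.05% of all genes tested), 2 had an unadjusted P under 0.05 (8.59%) and 0 an adjusted p under 0.05 (0.0%). The DEGs were 3 without I.P. mouse 1 (7.69% of all genes), 5 without S.C. mouse 2 (16.4%), and 0 without I.P. mouse 3 or 4 (5.61% and 5.41%). The DEG was Orc1 (chromosome 4, 108579423 to 108614833, plus strand), with 12.4 ± 0.492 CPM (SD, n = 2) by S.C. and 4.96 ± 1.96 CPM (SD, n = 4) by I.P. injection. It rose by 1.33 on the log2 scale (SE 0.56, unadjusted P = 0.0447, edgeR adjusted p = 0.569). The call was lost without a filter on low counts, with library size only, and when I.P. mouse 2, 3 or 4 or either S.C. mouse was left out, at log2 fold changes of 1.2 to 1.45. Pola2 was the second, with 139 ± 66.8 CPM (SD, n = 2) by S.C. and 69.9 ± 10.5 CPM (SD, n = 4) by I.P. injection. The log2 fold change was 1.0 (SE 0.33, unadjusted P = 0.0145, edgeR adjusted p = 0.443), just under 2-fold, and most of it came from S.C. mouse 1. Next by P were Chaf1b (log2 fold change 0.66, SE 0.38), Pole2 (-1.06, SE 0.65) and Rpa3 (0.63, SE 0.42), at edgeR adjusted p values of 0.708, 0.739 and 0.768.

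Genes that work beside the 48 were taken from 5 lists of pathway genes. In I.P. mouse 1 the medians of the log2 difference from the DMSO mean were -2.18 for 24 mitotic genes, -1.91 for 20 checkpoint and recombination genes, -1.24 for 27 genes of E2F and G1/S control, -0.97 for 42 other replication genes, and 0.23 for 7 CDK inhibitors. The 48 replication genes, at -1.54, lay between them, and genes of mitosis were low in the same mouse. By I.P., 0 of 118 genes of these lists were DEGs (2.0% of all genes were). The medians of the log2 fold change were -0.65, -0.46, -0.44, -0.24 and 0.45 in the same order. Below 0 were 24 of 24, 20 of 20, 25 of 27, 34 of 42 and 2 of 5 tested genes, against 48.2% of all genes tested. Cdkn1a, the CDK inhibitor p21, was at 252 and 264 CPM in DMSO mice and at 647, 247, 242 and 280 CPM in I.P. mice, highest in the mouse with the lowest replication genes. Among mitotic genes, Top2a, the topoisomerase that untangles sister chromatids, was at 118 and 106 CPM in DMSO mice and 8.28 CPM in I.P. mouse 1, whereas the proliferation marker Mki67 was at 72.9, 64.8 and 50.8 CPM in the same mice.

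By S.C., 2 of the 119 listed genes tested were DEGs, both lower (5.06% of all genes tested were DEGs). Ccnd1, which encodes the G1 cyclin D1, was at 84.3 and 79.1 CPM in DMSO mice and at 30.7 and 43.6 CPM in S.C. mice (log2 fold change -1.16, SE 0.35, edgeR adjusted p = 0.747). Nusap1, a spindle protein, was at 43.4 and 52.7 CPM in DMSO mice and at 16.4 and 19.2 CPM in S.C. mice (log2 fold change -1.46, SE 0.37, edgeR adjusted p = 0.747). Neither was called when a DMSO mouse was left out, and Ccnd1 was not called without S.C. mouse 1 (log2 fold change -0.93). E2f1, an activating E2F chosen after its values were seen, was at 105 and 110 CPM in DMSO mice and at 61.8 and 50.0 CPM in S.C. mice, with a log2 fold change of -0.97 that missed 2-fold (SE 0.31, edgeR adjusted p = 0.793). In I.P. mice E2f1 was at 86.9, 104, 96.7 and 94.4 CPM, so that I.P. mouse 1 kept most of its E2f1. Between the routes 1 of 118 listed genes was a DEG (7.05% of all genes). Dscc1, part of the alternative clamp loader, was at 14.1 and 16.6 CPM in S.C. mice and at 3.25, 7.24, 5.36 and 4.73 CPM in I.P. mice (log2 fold change 1.58, SE 0.48, edgeR adjusted p = 0.398).

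**Figure D5:**
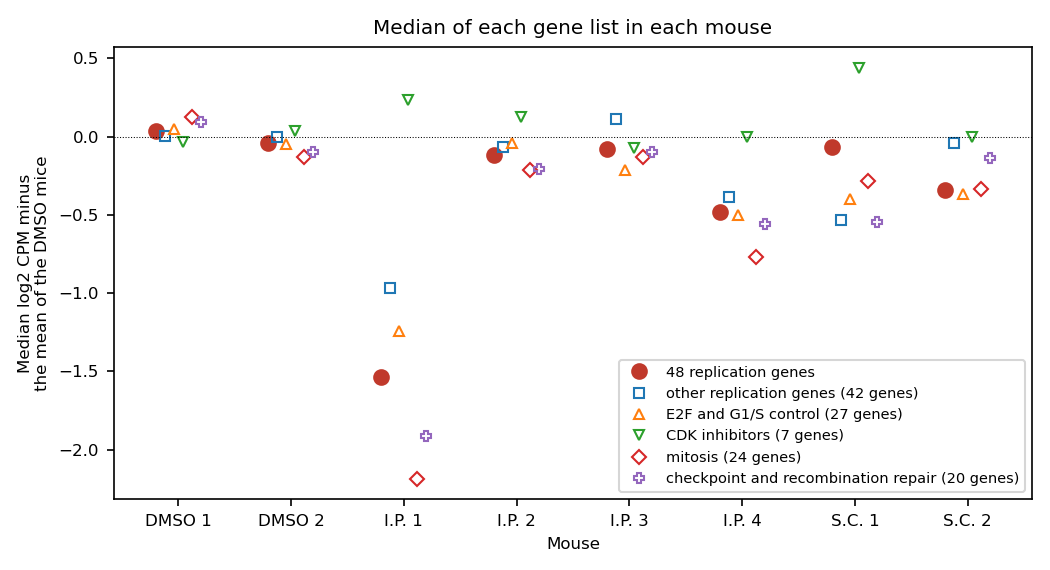
Median over the genes of a list of the log2 CPM minus the DMSO mean, for the 48 replication genes (filled) and 5 lists of neighbouring pathways (open) in each mouse. In I.P. mouse 1 the medians run from -2.18 (mitosis) to -0.97 (other replication genes), with CDK inhibitors alone above 0 at 0.23, and in I.P. mouse 4 the same lists lie at -0.77 to -0.39, with CDK inhibitors at 0.00.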

How the data were processed

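RNA-seq counts of TAMs from 8 mice (DMSO n = 2, I.P. n = 4, S.C. n = 2, grouped by their labels) were used. The counts were deposited by the authors as whole numbers per gene symbol without normalization. Reads were aligned to mm10 and counted with bowtie2 2.2.3 and RSEM 1.2.15 by the methods of the study, whereas the submitters' processing notes name TopHat2 and edgeR; the strand setting is not given in the sources used here.

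Genes were kept by filterByExpr (minimum count 10, minimum total 15), scaled by TMM, and each pair of groups was compared in R 4.3.3 by the two-sided quasi-likelihood test of edgeR 4.0.16, with Benjamini-Hochberg adjustment over the whole table. DEGs were genes changed at least 2-fold at an unadjusted P under 0.05. Standard errors (SE) were taken as the absolute log2 fold change over the root of F. CPM used 1 TMM scaling of all 8 mice, and log2 CPM a prior count of 2. Positions are from GENCODE vM21 on GRCm38, which held all 48 symbols. The smallest two-sided p that an exact permutation test allows is 0.133 for 4 mice against 2 and 0.333 for 2 against 2.

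The 48 genes and all lists were chosen with earlier results of these data known. Named were members that were DEGs, the 5 smallest P per comparison, the highest CPM per role group, and listed pathway genes that were DEGs (16 members and 3 others). A fold change and its test are given for these in the I.P. comparison and in the comparison that named them. The procedure was tested on simulated data. Alternatives were no filter, a minimum of 1 CPM in 2 samples, DESeq2-style (RLE) size factors, raw library sizes, the likelihood ratio test, DESeq2 1.42.0, all groups in 1 fit, a replicate block and leaving out each mouse, and, chosen after seeing the data, I.P. mice 1 and 2 without a block, the crossed block, and each I.P. mouse left out of the count of genes below both DMSO mice. Of the 48 genes 12 share exon bases with a gene on the other strand.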

Additional observations from a re-analysis of the deposited data

Results flagged for a closer look

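In the I.P. group, 3 of the 16 named genes had 1 mouse further from the other 3 than Dixon's test allows at the 95% level. The gap to the nearest mouse took 0.932 of the range of log2 CPM for Orc1, 0.919 for Rrm1 and 0.908 for Uhrf1, with I.P. mouse 1 the lowest each time. Over all 48 replication genes 6 passed this value, with I.P. mouse 1 as the outlying mouse in each, and it was the lowest of the I.P. mice for 43. These counts were not made over all genes. I.P. mouse 1 stood apart over all genes too, so the counts cannot be read as particular to replication genes. Chance gives such a gap in about 1 of 20 groups, and the genes of a library are not independent. The mean log2 CPM of the 48 genes did not pass it (0.762).

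The routes differed for 2 named genes by the test of S.C. against I.P. mice itself. Orc1 was higher in S.C. mice (log2 fold change 1.33, edgeR unadjusted P = 0.0447, adjusted p = 0.569), with both S.C. mice above all 4 I.P. mice. Pola2 was higher as well (log2 fold change 1.0, edgeR unadjusted P = 0.0145, adjusted p = 0.443), again in 2 of 2 mice. Neither passed the adjusted threshold. Both genes were picked by their P in this same comparison, so the lack of overlap between the groups adds no support. It was not counted over all genes.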

How the results depend on the processing

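In the I.P. comparison 0 of the 48 genes were DEGs under every alternative except the replicate block, which called 4 (Pola1, Uhrf1, Gins1 and Rrm2, with 2.46% of all genes called) and rests on I.P. mice 1 and 2, while the same mice without the block, chosen after seeing the data, gave 0. The labels' numbers did not pair the mice: correlations of deviations between same-numbered mice were -0.129 to 0.071. For S.C. against DMSO the block called 1 gene, Cdc6, and the numbers crossed (also chosen after seeing the data) called 0, so that the call of Pole2 was lost in both. For S.C. against I.P. the block called 1, Rrm2, and the calls of Orc1 and Dscc1 were lost. Over all genes the block gave 291, 429 and 389 DEGs (243, 591 and 860 without it). The all-gene I.P. count was 160 with all 3 groups in 1 fit. With library size only, the S.C. median of the 48 genes was -0.39, all 4 I.P. mice were below both DMSO mice for 18 genes in place of 11 (9.85% of all genes in place of 6.83%), and the DEG between the routes was lost, leaving 0, as also without a filter (0). At an adjusted p under 0.05, DESeq2 called 26, 107 and 234 genes of the whole table and the likelihood ratio test 10, 179 and 265, with 0 of the 48 genes among them.

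Leaving out 1 mouse at a time moved the all-gene DEGs between 116 and 361 (I.P.), 113 and 3432 (S.C.) and 632 and 2115 (between the routes), where the highest counts came without an S.C. mouse. The DEGs among the 48 genes ran from 0 to 11 by S.C. (with 9 and 5 members at an adjusted p under 0.05 without S.C. mouse 2 and 1, where 19.5% and 16.2% of all genes were) and from 0 to 5 between the routes, the S.C. median from -0.37 to -0.13, and the genes with all I.P. mice left below both DMSO mice from 11 to 20. The I.P. log2 fold change of Pcna ran from -0.42 to 0.023 and that of Dnmt1 from -0.15 to 0.020, above 0 only without I.P. mouse 1. Of the other single-gene values, 385 kept their direction and side of the threshold, 20 lost and 8 gained a call.

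With 2 mice in both the DMSO and S.C. groups, 1 library decides most calls. In the label numbers, I.P. mouse 1 stands with the S.C. mice, and any batch that follows those numbers cannot be told apart from the treatment for the S.C. and DMSO mice. Counts of Cdc6 and Gins3 in S.C. mouse 1 are under or near the floor.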
